A study of Homo sapiens with 24 samples.

Results

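The transcripts described here are 4 genes of the cell's handling of metals: the metallothioneins MT1E, MT1X and MT2A and the zinc exporter gene SLC30A1. They were chosen by name as rows of a table of 12547 endogenous genes, and all 4 have a row there. The rule uses gene names and no measured value.

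Metallothioneins are small cytosolic proteins rich in cysteine, whose thiols bind zinc, copper, cadmium and trivalent arsenic. SLC30A1 (ZnT1) sits in the plasma membrane and moves zinc out of the cell. Both kinds of gene are textbook targets of MTF1, a zinc-sensing transcription factor that binds metal response elements in their promoters, and arsenite is a known inducer of metallothioneins. QKI is an RNA-binding protein that recognises an ACUAAY element through its KH domain and is known for roles in splicing and mRNA stability; QKI7 is one of its isoforms.

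PolyA RNA of U2OS, a human osteosarcoma cell line, was measured in 24 libraries, 2 for each of 12 groups. The series asked how QKI affects mRNA stability. The groups were 4 genotypes sampled after 0, 4 and 8 h in 5 µg/mL actinomycin D, which blocks transcription, together with 200 µM sodium arsenite. Cells with the guide sgNS and the vector EV (sgNS+EV) served as the control. The guide sgQKI, against QKI, was combined with EV (sgQKI+EV), with intact QKI7 (sgQKI+QKI7-WT) or with QKI7 labelled as without its KH domain (sgQKI+QKI7-△KH). No arm had actinomycin D without arsenite, or arsenite without actinomycin D, so the 2 agents cannot be told apart. The labels do not say whether a genotype is 1 clone or a pool, nor whether the 2 libraries of a group came from separate cultures, so p-values measure the spread between these libraries, which may be technical.

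Values are a linear signal that was already scaled to ERCC spike-in RNA. The read depth behind a value is unknown. The 38 ERCC rows summed to between 11480 and 11940 per library and the endogenous rows to between 690400 and 1368000, with the lowest total in sgQKI+EV at 8 h and the highest in sgQKI+QKI7-△KH at 0 h. At 0 h the signal of QKI itself was 59.98 and 48.19 in the control libraries against 35.98 and 32.66 in the sgQKI+EV libraries, a log2 difference of −0.63 (SE 0.14, limma adjusted p = 0.0264). Its row does not separate the edited locus from the add-back construct. At 0 h the signal of QKI was 60.43 and 46.28 in sgQKI+QKI7-WT and 47.55 and 50.17 in sgQKI+QKI7-△KH. Against sgQKI+EV the log2 difference was 0.61 for sgQKI+QKI7-WT, which did not pass (limma adjusted p = 0.142). For sgQKI+QKI7-△KH it was 0.50 (adjusted p = 0.0339). Of the lineage markers, the mesenchymal genes VIM, SPARC, FN1 and CDH2 and the osteoblast gene RUNX2 had rows, while the osteoblast genes SP7, ALPL, BGLAP and IBSP had none. Of 7 epithelial markers 4 had a row, KRT8, KRT18, EPCAM and CLDN4, while CDH1, KRT19 and ESRP1 had none. Blood cell markers (0 of 4) had no row, and of 3 hepatocyte markers SERPINA1 alone had one.

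The metallothioneins lie in 1 cluster on chromosome 16 and SLC30A1 on chromosome 1, given here on GRCh38 with GENCODE 29. MT2A spans chr16:56608199-56609497, MT1E chr16:56625475-56627112 and MT1X chr16:56682424-56684196, all on the plus strand with 3 exons in the transcript used. SLC30A1 spans chr1:211571568-211578742 on the minus strand with 2 exons. The coding sequences of the 3 metallothioneins are shown because their likeness bears on how well reads can be assigned. Capitals mark the 22 of 186 positions at which the 3 differ.
MT2A: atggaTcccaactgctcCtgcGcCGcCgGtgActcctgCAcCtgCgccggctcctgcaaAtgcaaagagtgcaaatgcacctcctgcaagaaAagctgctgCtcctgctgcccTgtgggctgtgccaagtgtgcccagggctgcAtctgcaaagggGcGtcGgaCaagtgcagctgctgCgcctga
MT1E: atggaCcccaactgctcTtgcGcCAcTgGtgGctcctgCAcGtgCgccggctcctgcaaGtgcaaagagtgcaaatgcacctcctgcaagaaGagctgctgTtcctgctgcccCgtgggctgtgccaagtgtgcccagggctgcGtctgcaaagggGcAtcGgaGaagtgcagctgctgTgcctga
MT1X: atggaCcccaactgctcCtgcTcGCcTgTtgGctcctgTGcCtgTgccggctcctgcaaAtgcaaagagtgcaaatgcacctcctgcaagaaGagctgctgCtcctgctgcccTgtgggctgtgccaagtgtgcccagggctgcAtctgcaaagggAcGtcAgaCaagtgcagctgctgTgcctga

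In each of the 3, 20 of 61 codons before the stop are tgc or tgt, the cysteine codons. MT1E and MT1X are 90.9% identical over the coding sequence, and MT2A is 92.5% identical to either. Over the whole transcript, 45.1% of the 50-base windows of MT1X also occur in a transcript of another gene, MT2A among them. That share was 5.34% for MT1E, 4.88% for MT2A and 0 for SLC30A1. None of 15 other metallothionein genes or pseudogenes looked for, MT1A, MT1F, MT1G and MT1M included, has a row. The submitters' processing notes name RSEM without a version. How reads were shared among such copies is not described further in the sources used here, so the MT1X values are the least certain of the 4.

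The promoters of the metallothioneins are shown for the metal response elements they carry. Capitals mark matches to the core of that element, TGCACNC or TGCGCNC, on either strand, in the 250 bases before the RefSeq start (GRCh38.p14). 3 of the 4 genes were matched in the promoter table, MT1X, MT2A and SLC30A1. Where matches touch or overlap, the capitals run together.
MT2A (chr16:56608334-56608583, plus strand): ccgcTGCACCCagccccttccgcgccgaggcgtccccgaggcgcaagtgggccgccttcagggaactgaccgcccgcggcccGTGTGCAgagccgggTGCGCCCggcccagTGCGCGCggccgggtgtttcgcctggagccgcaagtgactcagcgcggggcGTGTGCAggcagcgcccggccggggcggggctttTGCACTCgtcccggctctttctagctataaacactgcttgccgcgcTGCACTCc
MT1X (chr16:56682220-56682469, plus strand): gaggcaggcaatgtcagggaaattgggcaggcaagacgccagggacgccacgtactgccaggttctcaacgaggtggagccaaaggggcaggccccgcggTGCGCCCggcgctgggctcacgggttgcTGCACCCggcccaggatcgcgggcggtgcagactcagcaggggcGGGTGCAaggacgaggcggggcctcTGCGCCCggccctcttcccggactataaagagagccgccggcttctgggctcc

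MT2A holds 7 matches, MT1X 4 and SLC30A1 1, at position −49 on the reverse strand. Of 27305 promoter windows of this length, 24.7% hold at least 1 match, 0.366% at least 4 and 0.033% at least 7. The metallothionein windows are thus dense in this core and the SLC30A1 window is ordinary, for windows placed by the RefSeq start. That start differs from the start of the gene spans given above. The MT2A window lies wholly inside its span, and the MT1X window runs past the start of its span. The SLC30A1 window lies upstream of its span and does not reach it. Windows placed at the starts of those spans were not searched. The data below measure the signal of each mRNA after the transcription block, not promoter activity.

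The 3′ untranslated regions differ in length, with 143 bases in MT2A, 141 in MT1E, 147 in MT1X and 3820 in SLC30A1. The DNA form of the QKI element, ACTAAC or ACTAAT, was searched on the transcript strand together with ATTTA, the core of AU-rich elements. The metallothioneins held 0 matches of either. SLC30A1 held 2 QKI elements, shown with 10 bases on each side and the element in capitals.
SLC30A1 position 3272: attttgttttACTAACaagctctgga
SLC30A1 position 3804: agaaaaataaACTAATtttaatatct

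Among 1877 untranslated regions cut to this length, 71.3% held at least 1 such element and 39.9% held at least 2, so the SLC30A1 count is ordinary for its length. It held 17 matches of ATTTA, which 8.47% of those windows reach. A match is a description of letters and not a measured site.

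**Figure D1:**
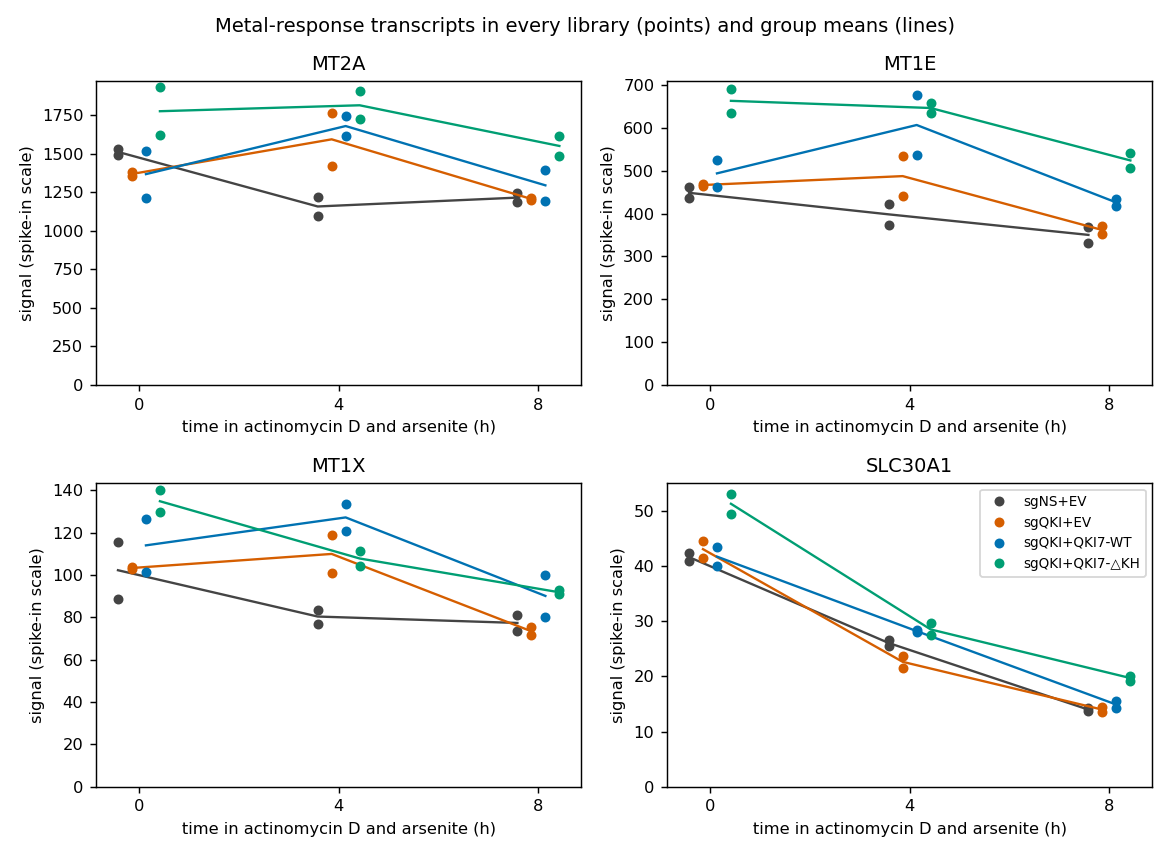
Signal on the spike-in scale (linear axes from 0) of MT2A, MT1E, MT1X and SLC30A1 in each of 24 libraries against hours in actinomycin D and arsenite; points are libraries, lines join group means of 2, and colours are genotypes. SLC30A1 falls in every genotype, from 39.92 or more at 0 h to 20.14 or less at 8 h, while the metallothioneins stay within a narrower band.

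SLC30A1, the zinc exporter mRNA, fell in every genotype and, on the deposited scale, at both steps of the time course. With quantile normalisation its fall from 4 h to 8 h in sgQKI+QKI7-△KH did not pass (−0.17, limma adjusted p = 0.066). Its signal at 0 h was 42.36 and 40.89 in sgNS+EV, 41.53 and 44.59 in sgQKI+EV, 43.5 and 39.92 in sgQKI+QKI7-WT, and 53.12 and 49.45 in sgQKI+QKI7-△KH. By 4 h it was 26.6 and 25.51 in sgNS+EV, 23.67 and 21.61 in sgQKI+EV, 28.09 and 28.33 with QKI7-WT, and 27.44 and 29.59 with QKI7-△KH. By 8 h it was 13.76 and 14.2 in sgNS+EV, 14.37 and 13.59 in sgQKI+EV, 15.49 and 14.29 with QKI7-WT, and 19.26 and 20.14 with QKI7-△KH. The 3 times do not overlap: the 8 libraries at 0 h ranged from 39.92 to 53.12, those at 4 h from 21.61 to 29.59 and those at 8 h from 13.59 to 20.14. Within each group the higher library was at most 1.09 times the lower.

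From 0 h to 8 h SLC30A1 fell by 1.51 on the log2 scale in sgNS+EV (SE 0.08, limma adjusted p = 2.53e-13). The change was −1.56 in sgQKI+EV, −1.43 in sgQKI+QKI7-WT and −1.34 in sgQKI+QKI7-△KH, with the same SE of 0.08 and adjusted p of at most 1.07e-12. At 4 h the log2 change was −0.66, −0.90, −0.55 and −0.82 in the same order, and each passed the threshold of 0.05. With exponential loss between the group means assumed, the half-life was 5.08 h in sgNS+EV, 4.93 h in sgQKI+EV, 5.38 h in sgQKI+QKI7-WT and 5.8 h in sgQKI+QKI7-△KH. When libraries were scaled to their totals these half-lives became 7.57, 7.94, 8.49 and 10.2 h. In bulk RNA, fewer cells that express a gene and less RNA per cell cannot be told apart.

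MT2A, the only gene of the MT2 class here, changed less over the same hours. Its signal at 0 h was 1490 and 1531 in sgNS+EV, 1382 and 1353 in sgQKI+EV, 1215 and 1518 in sgQKI+QKI7-WT, and 1928 and 1620 in sgQKI+QKI7-△KH. By 4 h MT2A was at 1217 and 1097 in sgNS+EV, 1764 and 1420 in sgQKI+EV, 1741 and 1615 with QKI7-WT, and 1722 and 1903 with QKI7-△KH. By 8 h MT2A was at 1186 and 1243 in sgNS+EV, 1214 and 1197 in sgQKI+EV, 1396 and 1192 with QKI7-WT, and 1482 and 1616 with QKI7-△KH. The libraries of sgNS+EV were lower at 4 h and 8 h than at 0 h without overlap. In sgQKI+EV and sgQKI+QKI7-WT both 4 h libraries lay above both 0 h libraries of the same genotype, and in sgQKI+QKI7-△KH the 0 h and 4 h libraries overlapped. From 0 h to 8 h MT2A fell by 0.31 in sgNS+EV (SE 0.11, limma adjusted p = 0.0145) on the deposited scale, a direction that turned to 0.20 when libraries were scaled to their totals. The changes of −0.18, −0.07 and −0.19 in sgQKI+EV, sgQKI+QKI7-WT and sgQKI+QKI7-△KH did not pass (adjusted p = 0.134, 0.535 and 0.116). The call in sgNS+EV was lost without replicate 2 at 0 h or replicate 1 at 8 h, with the adjusted p between 0.0294 and 0.0772 over the 4 libraries left out.

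MT1E, a metallothionein gene of the same cluster, had a signal at 0 h of 435.4 and 461.4 in sgNS+EV, 469.4 and 463.7 in sgQKI+EV, 462.1 and 525.4 in sgQKI+QKI7-WT, and 691.1 and 634.7 in sgQKI+QKI7-△KH. By 4 h MT1E was at 422.8 and 373.5 in sgNS+EV, 534.9 and 439.8 in sgQKI+EV, 675.9 and 537.2 with QKI7-WT, and 634.5 and 657.8 with QKI7-△KH. By 8 h MT1E was at 331.7 and 368.8 in sgNS+EV, 371.2 and 351.9 in sgQKI+EV, 435.1 and 416.5 with QKI7-WT, and 506.6 and 541.1 with QKI7-△KH. Every 8 h library lay below both 0 h libraries of its genotype, and at each time both sgQKI+QKI7-△KH libraries lay above all sgNS+EV and sgQKI+EV libraries. On the deposited scale MT1E fell by 0.36 in sgNS+EV (SE 0.10, limma adjusted p = 0.00296), by 0.37 in sgQKI+EV (adjusted p = 0.00222) and by 0.34 in sgQKI+QKI7-△KH (adjusted p = 0.00422), and each direction turned with library totals. In sgQKI+QKI7-WT the change was −0.21 and missed the threshold (adjusted p = 0.0588). The call in sgQKI+QKI7-△KH was lost without replicate 1 at 0 h (adjusted p = 0.0509).

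MT1X, the least certain of the 4, had a signal at 0 h of 88.81 and 115.8 in sgNS+EV, 103.8 and 102.9 in sgQKI+EV, 101.6 and 126.5 in sgQKI+QKI7-WT, and 140.2 and 129.6 in sgQKI+QKI7-△KH. By 4 h MT1X was at 83.74 and 77.11 in sgNS+EV, 119.1 and 100.9 in sgQKI+EV, 133.7 and 120.8 with QKI7-WT, and 104.3 and 111.4 with QKI7-△KH. By 8 h MT1X was at 73.52 and 81.27 in sgNS+EV, 71.52 and 75.4 in sgQKI+EV, 99.95 and 80.38 with QKI7-WT, and 91.03 and 92.73 with QKI7-△KH. All 8 h libraries were below both 0 h libraries of their genotype, and the 2 sgNS+EV libraries at 0 h differed by a factor of 1.3, the widest gap between replicates of any of the 4 genes. On the deposited scale MT1X fell by 0.39 in sgNS+EV (SE 0.12, limma adjusted p = 0.00474), fell by 0.49 in sgQKI+EV, fell by 0.34 in sgQKI+QKI7-WT and fell by 0.55 in sgQKI+QKI7-△KH. All 4 falls passed, and all 4 directions turned with library totals. The fall in sgNS+EV was lost without replicate 2 at 0 h or replicate 1 at 8 h (adjusted p up to 0.161). In sgQKI+QKI7-WT it was lost without replicate 2 at 0 h or at 8 h (adjusted p up to 0.224).

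In all, 4 of the 4 genes were lower at 8 h in sgNS+EV, where 88.2% of all genes were lower. The count was 3 of 4 in sgQKI+EV beside 90.5% of all genes, 2 of 4 in sgQKI+QKI7-WT beside 90%, and 3 of 4 in sgQKI+QKI7-△KH beside 90.6%. A fall over 8 h is therefore the common case on this scale, and the size of the fall is what sets the genes apart. The share of the 0 h mean that remained at 8 h in sgNS+EV was 80.44% for MT2A, 78.11% for MT1E, 75.65% for MT1X and 33.58% for SLC30A1, beside a median of 58.5% over all genes. In sgQKI+EV it was 88.12%, 77.5%, 71.07% and 32.47% beside 53.28%. In sgQKI+QKI7-WT it was 94.68%, 86.25%, 79.07% and 35.7% beside 55.17%, and in sgQKI+QKI7-△KH 87.3%, 79.02%, 68.09% and 38.42% beside 55.85%. The metallothioneins lay between percentiles 73.08 and 96.48 of all genes across the 4 genotypes, and SLC30A1 between 9.739 and 17.45. These places are a description and carry no test.

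**Figure D2:**
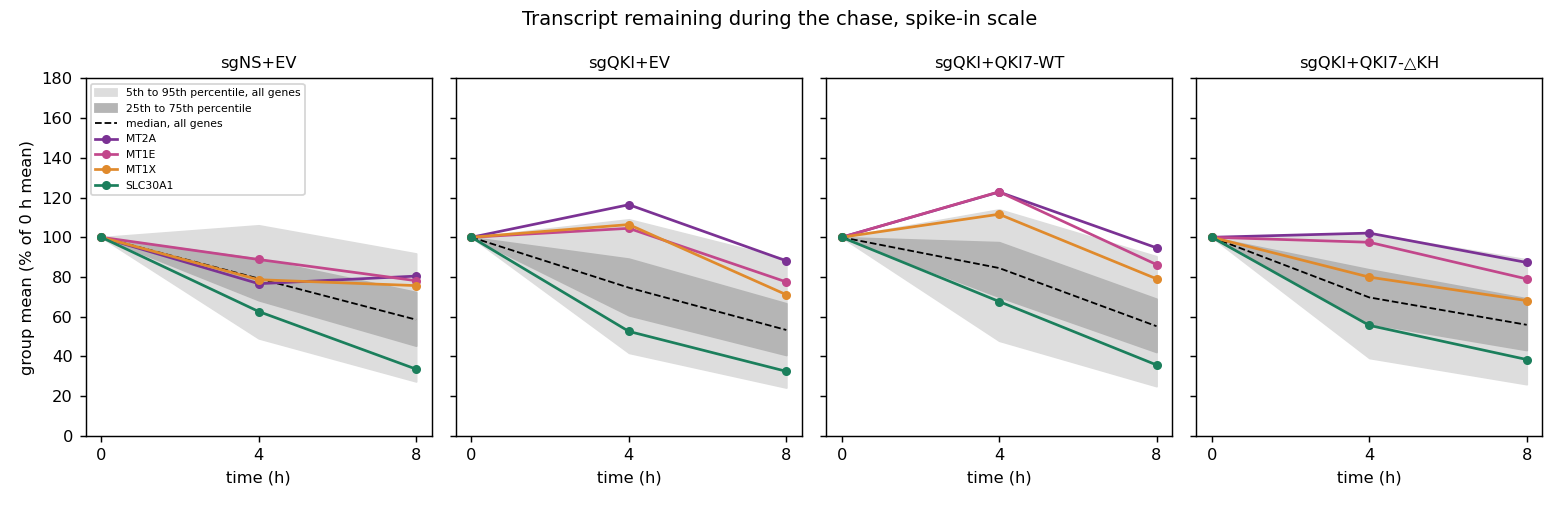
Group mean as a percentage of the 0 h mean of the same genotype (linear axis) against hours of the chase, 1 panel per genotype; grey bands span the 5th to 95th and 25th to 75th percentiles of 12547 genes, the dashed line is their median, and coloured points are the 4 genes. At 8 h the 3 metallothioneins lie above the median line and SLC30A1 below it in every panel.

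The gap between the 2 kinds of gene can also be read inside each library, where a factor common to all its genes cancels. Quantile normalisation is not such a factor. In sgNS+EV the 8 h changes of MT2A and SLC30A1 were −0.31 and −1.51 as deposited, and −0.09 and −0.71 with quantile normalisation. The ratio of the MT2A to the SLC30A1 signal was between 27.9 and 38 in the 8 libraries at 0 h, with a median of 34.2. At 4 h it was between 43 and 74.5 (median 62.4) and at 8 h between 76.9 and 90.1 (median 85.3). No library of one time overlapped those of another. The ratio of MT1E to SLC30A1 rose from a median of 11.3 at 0 h to 26.1 at 8 h, and that of MT1X from 2.56 to 5.45, also without overlap of 0 h and 8 h libraries. Between metallothioneins the ratios moved little: MT2A to MT1E had a median of 2.9 at 0 h and 3.24 at 8 h, with overlapping ranges of 2.55 to 3.42 and 2.86 to 3.58. Whether the deposited signal is per transcript length is not known, so the level of a ratio has no meaning here and only its change does. These ratios were not tested beyond the fits of each gene.

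The direction given for the metallothioneins depended on how libraries were scaled, and that for SLC30A1 did not. The mean endogenous total fell from 0 h to 8 h in every genotype, in sgNS+EV from 1218000 to 850700. Scaling to totals therefore raises every 8 h change, and a fall smaller than that of the total turns by construction. When each library was scaled to its own endogenous total, the 8 h change of MT2A was 0.20 in sgNS+EV, 0.44 in sgQKI+EV, 0.47 in sgQKI+QKI7-WT and 0.40 in sgQKI+QKI7-△KH, all higher at 8 h with limma adjusted p of at most 0.0273. MT1E became 0.16, 0.25, 0.34 and 0.26, of which the last 3 passed, and MT1X 0.12, 0.12, 0.21 and 0.04, of which none did. SLC30A1 was still lower, with log2 changes of −1.01, −0.97, −0.90 and −0.76. With these totals 12.9% of all genes were higher and 48.9% lower at 8 h in sgNS+EV, against 0.383% and 88.2% as deposited, and the median of all genes moved from −0.70 to −0.23. Quantile normalisation, which forces every library to 1 distribution, gave SLC30A1 changes of −0.71, −0.62, −0.57 and −0.50, and each passed. Under it the 12 changes of the metallothioneins lay between −0.09 and 0.28, with MT2A in sgNS+EV the lowest. Every metallothionein passed as higher in sgQKI+EV and sgQKI+QKI7-WT, and MT2A alone did in sgQKI+QKI7-△KH (limma adjusted p at most 0.0476). None passed in sgNS+EV. Between 33.2% (sgNS+EV) and 36.1% (sgQKI+EV) of all genes were higher under this scaling. How and when the spike-in was added is not given in the sources used here, so which scale is per cell is not known.

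**Figure D3:**
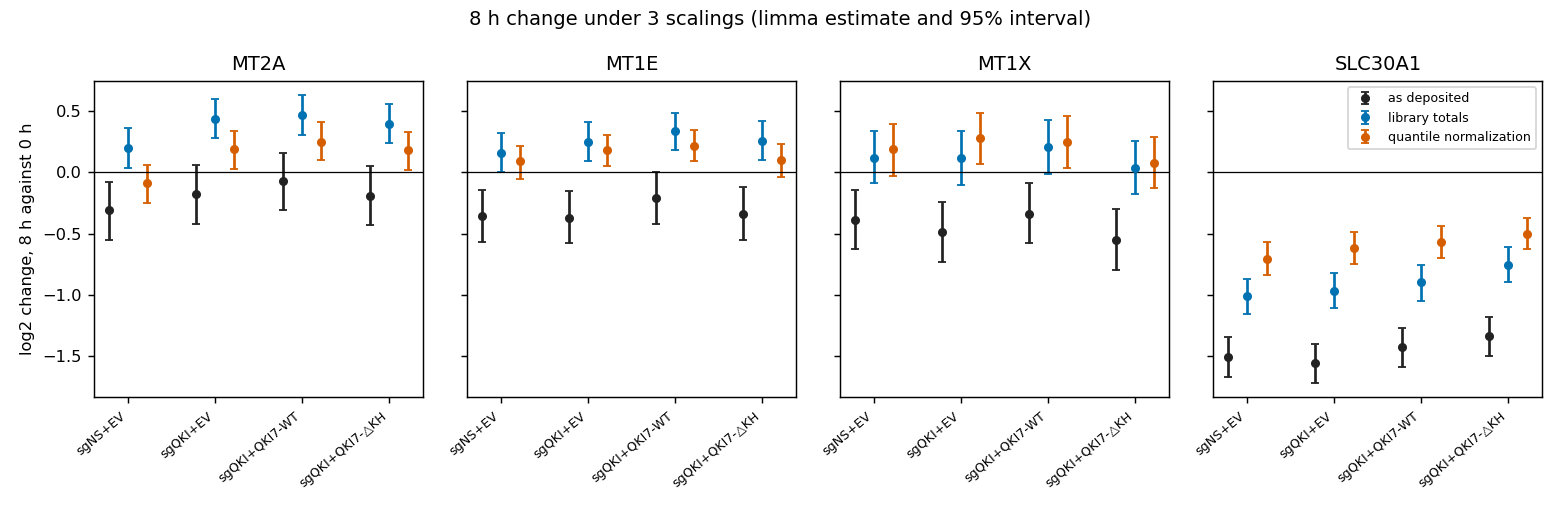
Log2 change from 0 h to 8 h (limma estimate with 95% interval) for each of 4 genes in 4 genotypes, with libraries as deposited (black), scaled to their totals (blue) or quantile normalised (orange). SLC30A1 is below 0 under the 3 scalings in every genotype, whereas the metallothioneins cross from below 0 as deposited to above 0 with library totals.

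The first 4 h are given next, on the deposited scale. In sgNS+EV 3 of the 4 genes were lower at 4 h than at 0 h, where 59.8% of all genes were lower: MT2A fell by 0.39 (SE 0.11, limma adjusted p = 0.00682), MT1X fell by 0.33 and SLC30A1 as given above. MT1X lost its call without replicate 2 at 0 h or at 4 h, and MT2A without replicate 2 at 4 h. With library totals MT2A gave −0.02 and MT1X 0.03. In sgQKI+QKI7-WT MT1E rose by 0.29 (SE 0.10, adjusted p = 0.0258) and MT2A rose by 0.30 (SE 0.11, adjusted p = 0.0351), in a comparison in which 2.66% of all genes were higher. SLC30A1 was lower there, as were 42.9% of all genes. Both rises were lost without replicate 1 at 0 h or replicate 1 at 4 h (adjusted p up to 0.387) and in a fit of those groups alone (adjusted p = 0.172 and 0.216), and that of MT2A with quantile normalisation (0.18, adjusted p = 0.0636). The endogenous totals of sgQKI+QKI7-WT were 1137000 and 1183000 at 0 h and 1138000 and 1090000 at 4 h, while those of the other genotypes were lower at 4 h than at 0 h. Their part in the rises was not tested. With library totals the 4 h changes in sgQKI+QKI7-WT were 0.35 for MT1E and 0.36 for MT2A. On that scale both genes were also higher at 4 h in sgQKI+EV and sgQKI+QKI7-△KH, as given below.

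In sgQKI+EV SLC30A1 alone was lower at 4 h, where 63.8% of all genes were lower, and none of the metallothioneins passed, with changes of 0.21 for MT2A, 0.06 for MT1E and 0.08 for MT1X. With library totals these became 0.42, 0.27 and 0.29, and all 3 passed. In sgQKI+QKI7-△KH MT1X fell by 0.32 (limma adjusted p = 0.02, lost without replicate 1 at 0 h or at 4 h), beside 73.6% of all genes lower, and MT2A and MT1E gave 0.03 and −0.04. With library totals MT1X gave −0.03, and MT2A and MT1E were higher by 0.33 and 0.26. In percent of the 0 h mean, MT2A stood at 76.61% in sgNS+EV, 116.4% in sgQKI+EV, 122.8% in sgQKI+QKI7-WT and 102.1% in sgQKI+QKI7-△KH at 4 h. The median of all genes was 79.24%, 74.56%, 84.55% and 69.7% at the same time. MT2A was thus near the middle of all genes in the control and above percentile 95 in the other 3 genotypes.

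The next comparison asked whether QKI-targeted cells differed from control cells at a given time. At 0 h none of the 4 genes differed between sgQKI+EV and sgNS+EV: the log2 differences were −0.14 for MT2A, 0.06 for MT1E, 0.03 for MT1X and 0.05 for SLC30A1. In that limma fit 1.55% of all genes passed, and at an unadjusted p under 0.05 the count among the 4 genes was also 0. The 95% intervals ran from −0.38 to 0.10 for MT2A and from −0.11 to 0.21 for SLC30A1. At 8 h the differences were −0.01, 0.05, −0.07 and 0.00, again with 0 of 4 past the threshold and 0 at an unadjusted p under 0.05, while 34.3% of all genes passed and 34% were lower. The median of all genes was −0.20, a value that lies inside the 95% intervals of MT2A (−0.25 to 0.23) and MT1X (−0.32 to 0.17). With library totals MT1E (0.32) and SLC30A1 (0.26) were higher at 8 h, and MT2A gave 0.27 with adjusted p = 0.05.

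At 4 h all 4 genes passed between these genotypes, and not in 1 direction. MT2A was higher in sgQKI+EV by 0.45 (SE 0.11, limma adjusted p = 0.00417), MT1X by 0.44 (SE 0.12, adjusted p = 0.00607) and MT1E by 0.29 (SE 0.10, adjusted p = 0.0308), where 6.74% of all genes were higher. SLC30A1 was lower by −0.20 (SE 0.08, adjusted p = 0.0459), where 34% of all genes were lower. Both sgQKI+EV libraries lay above both sgNS+EV libraries for each metallothionein and below both for SLC30A1. MT2A and MT1X kept their calls with library totals (0.47 and 0.46) and with quantile normalisation (0.39 and 0.46), as MT1E did (0.31 and 0.26), while SLC30A1 was 0.00 with quantile normalisation. The calls of MT2A and MT1X were lost without sgQKI+EV replicate 1 at 4 h (adjusted p up to 0.0831 and 0.0855). That of MT1E was lost without the same library or without sgNS+EV replicate 2 at 4 h, and that of SLC30A1 without sgQKI+EV replicate 2 or either sgNS+EV library. In a fit of the compared groups alone MT1E and SLC30A1 missed the threshold (adjusted p = 0.0614 and 0.121). Of the 4 epithelial markers with a row, KRT8 and KRT18 were higher in sgQKI+EV in the same comparison, by 0.29 each. CLDN4 (0.17) and EPCAM (−0.09) did not pass. KRT8 and KRT18 carry most of the signal of the 4, with means over all libraries of 517.5 and 528.9. Those of EPCAM and CLDN4 were 5.945 and 7.912. The summed signal of these 4 was 921.6 and 941.1 in the sgNS+EV libraries at 4 h and 1062 and 1211 in those of sgQKI+EV. At 0 h it was 1178 and 1256 against 1229 and 1189, and at 8 h 752.9 and 832.2 against 739 and 712.9. The part of these markers in the result was not tested.

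Cells with sgQKI+QKI7-△KH had more signal of all 4 genes than cells with sgQKI+EV at 0 h and 8 h. At 0 h the difference was 0.50 for MT1E (SE 0.10, limma adjusted p = 0.0124), 0.38 for MT1X, 0.37 for MT2A and 0.25 for SLC30A1, where 12.6% of all genes were higher and the median of all genes was 0.19. At 8 h it was 0.53, 0.32, 0.36 and 0.47, where 44.2% of all genes were higher and the median was 0.25. At 4 h 2 of the 4 genes were higher, MT1E by 0.41 and SLC30A1 by 0.32, beside 2.16% of all genes. Neither passed there with library totals or without sgQKI+EV replicate 2 or either sgQKI+QKI7-△KH library at 4 h (0 of 4 in each), and MT1E alone passed with quantile normalisation. The endogenous totals were 1368000 and 1206000 in sgQKI+QKI7-△KH at 0 h and 1122000 and 1036000 in sgQKI+EV. With library totals none of the 4 genes passed at 0 h or 8 h: MT1E gave 0.25 and 0.26, and SLC30A1 gave 0.00 and 0.21. At 0 h between 0 and 2 of the 4 genes passed when any 1 library was left out, and at 8 h 2 or 3, with MT1E and SLC30A1 past the threshold each time.

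Intact QKI7 was then set against QKI7 without the KH domain. At 0 h MT1E was lower in sgQKI+QKI7-WT by −0.43 (SE 0.10, limma adjusted p = 0.0287) and SLC30A1 by −0.29 (SE 0.08, adjusted p = 0.0407), where 3.71% of all genes were lower. The differences of −0.38 for MT2A and −0.25 for MT1X did not pass (adjusted p = 0.0642 and 0.192), and the median of all genes was −0.15. At 8 h SLC30A1 was lower by −0.38 (adjusted p = 0.00706), where 4.84% of all genes were lower, and MT1E, MT2A and MT1X gave −0.30, −0.26 and −0.04. At 4 h 0 of 4 genes passed by limma, 0 at an unadjusted p under 0.05, beside 0.98% of all genes. Both calls at 0 h were lost without sgQKI+QKI7-WT replicate 1 or without either sgQKI+QKI7-△KH library, and with library totals, where MT1E gave −0.28 and SLC30A1 −0.15. Without sgQKI+QKI7-WT replicate 2 the call of SLC30A1 was lost too. The call at 8 h was lost without replicate 2 of either genotype (adjusted p up to 0.182) and with quantile normalisation (−0.21, adjusted p = 0.109).

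Against sgQKI+EV, sgQKI+QKI7-WT showed no difference past the threshold at 0 h or 8 h (0 of 4 each by limma, with 0 and 2 at an unadjusted p under 0.05, and 0.0877% and 0.526% of all genes past the threshold). At 4 h 2 of 4 were higher, MT1E by 0.31 (SE 0.10, limma adjusted p = 0.0212) and SLC30A1 by 0.31 (SE 0.08, adjusted p = 0.00438), where 37.7% of all genes were higher and their median was 0.20. The count was 0 of 4 with library totals, with quantile normalisation, in a fit of those groups alone and without sgQKI+EV replicate 2 at 4 h. Without sgQKI+QKI7-WT replicate 1 at 4 h SLC30A1 alone passed.

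**Figure D4:**
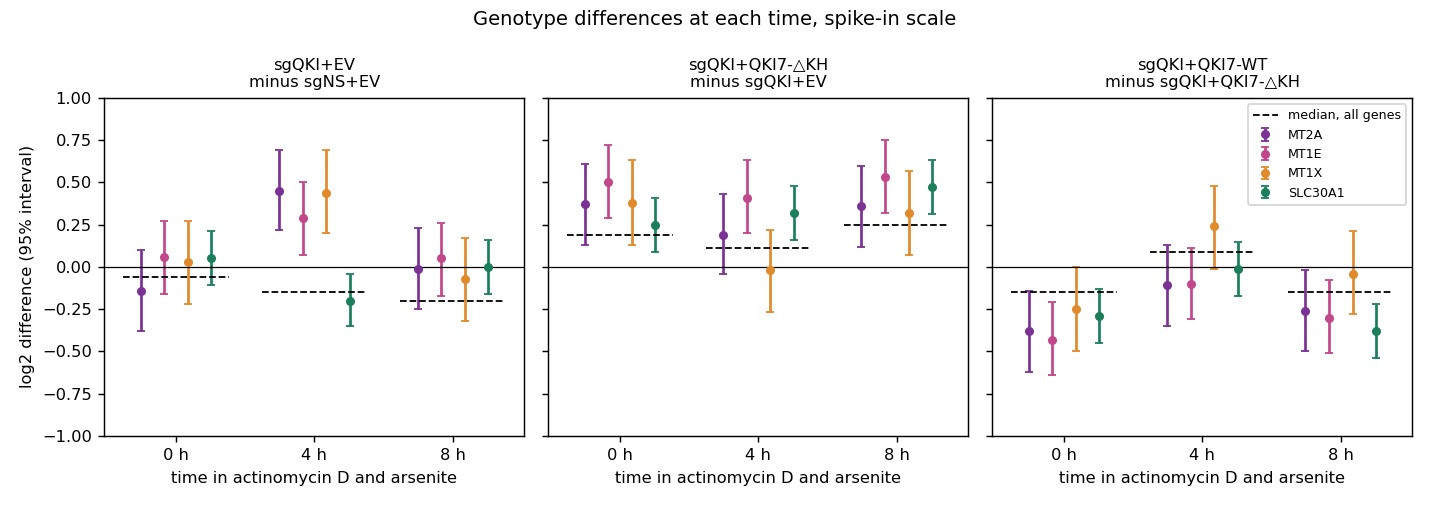
Log2 difference (limma estimate with 95% interval, spike-in scale) between genotypes at 0, 4 and 8 h for the 4 genes, with the median of all genes as a dashed line; the panels show sgQKI+EV minus sgNS+EV, sgQKI+QKI7-△KH minus sgQKI+EV, and sgQKI+QKI7-WT minus sgQKI+QKI7-△KH. In the first panel the metallothioneins stand above 0 at 4 h and near 0 at 0 h and 8 h, and in the second all 4 genes stand above 0 at 0 h and 8 h.

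Stability itself was compared as the difference between genotypes in the change with time, tested as an interaction. Over 0 h to 8 h no gene of the 4 passed in any of the 4 pairs of genotypes (limma, 0 of 4 each at an unadjusted p under 0.05). For sgQKI+QKI7-WT and sgQKI+QKI7-△KH, each minus sgQKI+EV, 0% of all genes passed either. For sgQKI+EV minus sgNS+EV the values were 0.13 for MT2A (95% interval −0.20 to 0.47), −0.01 for MT1E (−0.31 to 0.29), −0.10 for MT1X (−0.45 to 0.25) and −0.05 for SLC30A1 (−0.27 to 0.18), in a comparison where 0.677% of all genes passed. For sgQKI+QKI7-WT minus sgQKI+QKI7-△KH they were 0.12 for MT2A, 0.13 for MT1E, 0.21 for MT1X and −0.09 for SLC30A1 (−0.32 to 0.13), and 0% of all genes passed. With 2 libraries per group, true differences of any size within these intervals remain possible.

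Over the first 4 h alone, MT2A differed in its change between sgQKI+EV and sgNS+EV. Its 4 h mean in sgQKI+EV was 116.4% of the 0 h mean, a value that loss alone does not leave. The difference was 0.60 (SE 0.16, 95% interval 0.26 to 0.93, limma adjusted p = 0.0363), in a comparison where 1.8% of all genes were higher and 10.7% passed in either direction. MT1X gave 0.42 (adjusted p = 0.096), MT1E 0.23 (0.282) and SLC30A1 −0.24 (0.128), and none of these passed. The MT2A call held with library totals (0.44) and with quantile normalisation (0.45). MT1X passed in a fit of the 4 groups alone (adjusted p = 0.00359) and without sgNS+EV replicate 1 at 0 h (0.61, adjusted p = 0.0408), and SLC30A1 with library totals (−0.39, adjusted p = 0.00533). The MT2A call was lost in 7 of the 8 fits that left out 1 library, with values between 0.44 and 0.75 and adjusted p between 0.0485 and 0.171, and held without sgNS+EV replicate 1 at 0 h. From 4 h to 8 h MT2A gave 0.07 in sgNS+EV, which did not pass, and fell by 0.39 in sgQKI+EV (adjusted p = 0.00421, lost without replicate 1 at 4 h). The difference between genotypes over those hours was not tested. With library totals the same changes were 0.22 and 0.01. In those hours 1 of the 4 genes, SLC30A1, was lower in sgNS+EV beside 64.9% of all genes, and all 4 were lower in sgQKI+EV beside 79.2%. All 4 were also lower in sgQKI+QKI7-WT beside 83.7%, and MT1E and SLC30A1 in sgQKI+QKI7-△KH beside 58.2%. With library totals SLC30A1 was the 1 gene lower in each genotype, and with quantile normalisation it was so in every genotype but sgQKI+QKI7-△KH, where none passed. A fit of the 2 groups alone gave 4 of 4 lower in sgQKI+QKI7-△KH. MT1E in sgQKI+QKI7-△KH was also lost without replicate 2 at 4 h or replicate 1 at 8 h. For sgQKI+QKI7-WT minus sgQKI+QKI7-△KH over the first 4 h, MT1X gave 0.48 (adjusted p = 0.0529), MT1E 0.33, SLC30A1 0.28 and MT2A 0.27. By limma 0 of 4 passed there, with 3 at an unadjusted p under 0.05, beside 16% of all genes past the threshold.

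The other genes of metal handling were measured beside the 4. Of 18 zinc transporters and metal sensors, 16 were lower and 0 higher at 8 h in sgNS+EV, with a median of −0.84 beside 88.2% lower and a median of −0.70 over all genes. MTF1, the metal sensor itself, fell by 1.68 (SE 0.13), and SLC30A7, a Golgi zinc transporter, fell by 1.60. The importer SLC39A1 fell by 0.49, and SLC39A7, which releases zinc from the endoplasmic reticulum, fell by 0.46. The change of SLC30A1, −1.51, lay in the range of these falls. Between sgQKI+EV and sgNS+EV, 0 of the 18 passed by limma at 0 h, and 0 at an unadjusted p under 0.05, where 1.55% of all genes did. At 4 h 8 of the 18 were lower and at 8 h 4, beside 34% of all genes lower at either time.

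Of 9 copper genes measured, 5 were lower at 8 h in sgNS+EV and 0 higher, with a median of −0.51, beside the same 88.2% and −0.70 of all genes. The copper pumps ATP7A and ATP7B changed by −1.22 and −0.58, SLC31A2, a relative of the copper importer, by −1.09, and SCO1, which loads copper into cytochrome oxidase, by −0.51. Of 12 genes of glutathione, thioredoxin and arsenic handling, 9 were lower and 0 higher, with a median of −0.46, in the same comparison. GCLC, which catalyses the first step of glutathione synthesis, changed by −1.63 and the cystine transporter SLC7A11 by −1.43. GSTO2, an omega-class glutathione transferase, changed by −0.43 and the peroxiredoxin PRDX1 by −0.25.

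Of 15 genes that arsenite is known to induce, 13 fell at 8 h in sgNS+EV and 0 rose, with a median of −1.0, where 88.2% of all genes were lower. The immediate-early genes EGR1 and JUN changed by −3.58 and −2.09, and at the other end OSGIN1 changed by −0.66 and the chaperone HSPH1 by −0.24. All 9 mRNAs chosen as short-lived references were lower, with a median of −2.27, from CCNL1 (−1.26) and KLF6 (−1.86) to JUNB (−2.86) and IER3 (−4.57). All 10 chosen as long-lived were lower too, with a median of −0.44, from ALDOA (−0.24) and PPIA (−0.27) to ACTB (−0.78) and LDHA (−1.90), the last of which did not behave as its list's name says. The metallothioneins, between −0.39 and −0.31, fell slightly less than the median of the long-lived genes on this scale. SLC30A1, at −1.51, lay between the medians of the 2 reference lists. It was inside the range of the long-lived genes only through LDHA.

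Across the 24 libraries the genes whose log2 signal ran most nearly with each of the 4 were found among 8553 genes with a mean signal of at least 10. Libraries share their scaling, total and time, so these correlations are descriptions. For MT2A they were KRT81 (Pearson r = 0.94), CRELD2 (0.92) and CLTB (0.92). For MT1E they were NANS (0.96), TNNC1 (0.95) and STIP1 (0.94), and for MT1X they included MYL9 (0.95) and C1QBP (0.94). For SLC30A1 they were NUAK1, PIGW and TGFBRAP1, at 0.99 each, which changed by −1.43, −1.51 and −1.38 at 8 h in sgNS+EV. Among the 4 genes, r was 0.91 for MT1E with MT2A, 0.86 for MT1E with MT1X and 0.82 for MT1X with MT2A, and 0.46 to 0.71 for a metallothionein with SLC30A1. With the library's endogenous total r was 0.93 for SLC30A1, 0.79 for MT1X, 0.66 for MT1E and 0.59 for MT2A.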

How the data were processed

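Libraries were stranded polyA RNA-seq, per the labels' protocols. STAR, RSEM and GRCh38 are named without versions, per the submitters' processing notes. The authors deposited 1 table of a linear signal per gene, which the near-constant ERCC sums show to be scaled to the spike-in. The unit before that step and the way the spike-in was added are not given in the sources used here.

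Samples were grouped by genotype and time from their labels. The signal was taken as log2(value + 1), and genes with a value of at least 1 in at least 2 libraries were kept, which removed none. limma 3.58.1 (R 4.3.3) with an intensity trend was fitted to 12 group means over 24 libraries, with Benjamini-Hochberg adjustment over 12547 genes and a threshold of 0.05, and the fit was tested on simulated data. Tables were made with Python 3.11.15, pandas 2.3.3 and numpy 2.4.6. Log2 changes are on the log2(value + 1) scale. Motifs and transcripts were read from RefSeq promoter and GENCODE 29 sequences.

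The genes and lists were chosen with earlier results of these data known. Named were the 4 genes, QKI, the 2 highest and 2 lowest changes of each list among genes that passed, and the 3 nearest genes by correlation, of which 1 is not reported here. The fits were repeated without each library in turn, on the compared groups alone, with the replicate number as a block, without the filter, with 0.1 as pseudocount, and after scaling to library totals or to 1 distribution by quantiles. The change over 4 h in place of 8 h was added after the data were seen.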

Additional observations from a re-analysis of the deposited data

Results flagged for a closer look

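The change of MT2A over the first 4 h differed between sgQKI+EV and sgNS+EV by 0.60 on the log2 scale (SE 0.16, limma adjusted p = 0.0363), by a test of the difference itself. MT2A stood at 116.4% of its 0 h mean in sgQKI+EV and at 76.61% in sgNS+EV. It is listed because that test passed. The comparison over 4 h was added after the values had been seen, and the call was lost in 7 of the 8 fits that left out 1 library (values from 0.44 to 0.75, adjusted p from 0.0485 to 0.171). Over 8 h the same difference was 0.13 and did not pass.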

How the results depend on the processing

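The lower count at 8 h (4, 3, 2 and 3 of 4 genes in sgNS+EV, sgQKI+EV, sgQKI+QKI7-WT and sgQKI+QKI7-△KH) became 1 in each genotype, SLC30A1, with quantile normalisation or library totals. Leaving out 1 library gave ranges of 2 to 4, 3 to 3, 1 to 3 and 2 to 4. For sgQKI+QKI7-WT against sgQKI+QKI7-△KH at 0 h the count of 2 became 1 with quantile normalisation, 0 with totals, and 0 to 2 with 1 library left out. The 0 of 4 for the decay difference of sgQKI+EV minus sgNS+EV became 1 with 4 h in place of 8 h. Causes were not tested.

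Directions turned as follows, quantile value first and totals second. For changes with time, a fall smaller than that of the endogenous total turns with totals by construction. At 8 h MT1E gave 0.09 and 0.16, 0.18 and 0.25, 0.22 and 0.34, and 0.10 and 0.26 in the 4 genotypes in the same order. MT1X gave 0.19 and 0.12, 0.28 and 0.12, 0.25 and 0.21, and 0.08 and 0.04. MT2A gave 0.20 in sgNS+EV (totals), then 0.19 and 0.44, 0.25 and 0.47, and 0.18 and 0.40. At 4 h sgNS+EV gave 0.09 and 0.19 for MT1E and 0.01 and 0.03 for MT1X, and sgQKI+QKI7-△KH 0.14 and 0.26 for MT1E. For sgQKI+EV against sgNS+EV at 8 h MT1X gave 0.21 and 0.20, MT2A 0.23 and 0.27 and SLC30A1 0.20 and 0.26, and at 0 h MT2A gave 0.03 (totals). The decay difference over 8 h gave 0.09 and 0.09 for MT1E, 0.09 for MT1X (quantile) and 0.08 and 0.04 for SLC30A1. SLC30A1 in sgQKI+QKI7-△KH against sgQKI+EV at 0 h gave 0.00 (totals), and MT1X in sgQKI+QKI7-WT against sgQKI+QKI7-△KH at 8 h gave 0.08 and 0.06.

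With 1 library left out, signs turned only for values that had not passed. MT1E ran from −0.08 to 0.20 and MT1X from −0.03 to 0.20 at 4 h in sgQKI+EV. MT2A ran from −0.24 to 0.09 at 8 h in sgQKI+QKI7-WT. At 4 h in sgQKI+QKI7-△KH MT1E ran from −0.10 to 0.03 and MT2A from −0.09 to 0.16. For sgQKI+EV against sgNS+EV MT1X ran from −0.16 to 0.22 and SLC30A1 from 0.00 to 0.10 at 0 h, and MT1E from −0.03 to 0.12, MT2A from −0.04 to 0.02 and SLC30A1 from −0.04 to 0.04 at 8 h. Its decay difference over 8 h ran from −0.09 to 0.07 for MT1E, −0.29 to 0.09 for MT1X and −0.10 to 0.00 for SLC30A1. For sgQKI+QKI7-WT against sgQKI+QKI7-△KH, MT1X ran from −0.19 to 0.12 at 8 h, and the decay difference of MT2A from −0.04 to 0.28.

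Replicate numbers showed no pairing common to all groups: over 66 pairs of groups the correlation of their deviations had a median of −0.01 (−0.51 to 0.74), and 25 exceeded 0.1. A median over all pairs cannot show whether libraries were paired within a genotype or a time, which was not tested. With the replicate block all 72 results for single genes kept direction and side of the threshold, and the counts at 8 h stayed at 4, 3, 2 and 3. A pseudocount of 0.1 did the same. The fit without the filter could not differ, because the filter removed no gene.

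Counts over all genes moved more. For sgQKI+EV against sgNS+EV at 0 h 195 genes passed, 1328 from the compared groups alone, 1032 with totals, 776 with quantile normalisation and 25 to 99 with 1 library left out. For sgQKI+QKI7-WT against sgQKI+QKI7-△KH at 0 h the counts were 471, 265, 55, 142 and 16 to 175. For sgQKI+QKI7-△KH against sgQKI+EV at 0 h they were 1590, 3736, 47, 87 and 20 to 1026. For the decay difference of sgQKI+EV minus sgNS+EV they were 85, 1373, 54, 66 and 1 to 11 over 8 h, and 1341, 3142, 4852, 2446 and 0 to 921 over 4 h. For sgQKI+EV against sgNS+EV at 4 h 5117 became 2318 to 4314 with 1 library left out. The median SE of 0.15 for a decay difference limits what 2 libraries per group can show.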
